A study of Mus musculus with 24 samples.

Results

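Described here are 9 liver genes that are targets of the nuclear receptor PPARα or act in the response to fasting in which ketone bodies are made, out of the 24411 genes counted in 24 mouse liver libraries. They were chosen by symbol and are *Cpt1a*, *Cyp4a10*, *Cyp4a14*, *Pdk4*, *Fgf21*, *Angptl4*, *Plin2*, *Ehhadh* and *Acot3*. All 9 were measured in every library and all 9 passed the filter on low counts in each comparison.

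PPARα is a receptor for fatty acids and their derivatives. Together with RXR it binds a direct repeat of a hexamer with a single base between the copies (DR1), and in the fasted liver it raises genes for fatty acid uptake into mitochondria and peroxisomes, oxidation and ketone body synthesis. Some of these genes also answer to other regulators. *Pdk4* responds to glucocorticoids and FOXO1, *Fgf21* to the stress factor ATF4, and *Plin2* and *Angptl4* to lipid loading and hypoxia.

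The libraries came from whole liver of male mice that carried floxed alleles of *E2f7* and *E2f8*, and the study describes the R26R-mTmG Cre reporter in both knockout models. LKO mice also carried Alb-Cre, active in liver cells from before birth, on a mixed and mainly FVB background, while their control littermates lacked Cre. HKO mice were floxed mice given AAV8-TBG-Cre at 2 months of age, which deletes the alleles in adult hepatocytes, and their controls, called Null controls here, received AAV8-TBG-Null. The study's methods give an age of 2.5 months and an overnight fast of about 16 h before acetaminophen (APAP). The study describes the control and LKO mice at 0 h as fasted and untreated, and for the HKO cohort at 0 h it does not give the feeding state separately. At 0 h there were 3 Null control, 3 HKO, 4 control and 4 LKO mice, 1 library per mouse. At 12, 24, 48, 72 and 96 h after 300 mg/kg APAP there was 1 control and 1 LKO library per time point, each pooled from 3 mice. Access to food after APAP is not given in the sources used here, so time since the fast and time since APAP cannot be told apart.

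Reads on genes ranged from 12665686 to 19499897 per library with a median of 16500386. Levels are given in CPM (reads per 1e6 reads of a TMM-scaled library). A count of 3, used as the detection limit, equalled 0.154 to 0.237 per 1e6 reads on genes before that scaling, and somewhat different values in CPM. That limit covers counting error only. The 7 hepatocyte markers measured, led by *Alb*, summed to between 48584 and 137958 CPM per library, and none was at 0. *E2f8* had 15.0 to 26.5 CPM in Null control, 30.8 to 83.8 in HKO, 11.8 to 18.8 in control and 17.9 to 34.1 in LKO mice at 0 h, and *E2f7* had at most 1.33 CPM. The count covers whole genes and not the deleted exons alone, so it does not check a genotype, and directions follow the labels. These are bulk tissue values, in which fewer cells of a type and less RNA per cell cannot be told apart.

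The genes lie on 7 chromosomes of GRCm38. *Cyp4a14* (chromosome 4, 115486200 to 115496142) and *Cyp4a10* (chromosome 4, 115518264 to 115533649) are neighbours, and *Plin2* lies on the same chromosome from 86648386 to 86670060. Of the 100-base windows of *Cyp4a10* exons, 12.7% occur in another gene (*Cyp4a31* or *Cyp4a32*), and of those of *Acot3* 14.3% do (*Acot1*, *Acot5*, *Acot6* or *Gm49366*). Only uniquely mapped reads were counted and reads from such windows may be lost, so the levels of these genes are less certain than those of the other 7, for which the share was at most 0.224%. The shares depend on the window. With 50 bases they were 30.5% for *Cyp4a10*, 19.5% for *Acot3*, 4.89% for *Plin2*, 1.43% for *Pdk4* and at most 0.245% for the others.

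Promoters of 6 of the 9 genes were in the RefSeq table used (GRCm38.p6), without *Cyp4a10*, *Cyp4a14* and *Angptl4*. Both strands of the 300 bases from 250 before to 50 after the start were searched for DR1 (AGGTCANAGGTCA, up to 2 mismatches), the core of the C/EBP-ATF response element that ATF4 binds (TGATGNAA, no mismatch) and the core of the hypoxia response element (ACGTG, no mismatch). DR1 matched in *Plin2* alone of the 6, against 3.81% of 27025 promoters, and the ATF4 element in *Fgf21* alone, against 4.06%. The hypoxia core matched in both and in 19.7% of all promoters, as the palindrome that is also read on the other strand, 50 to 45 bases before the start of *Fgf21* and across the start of *Plin2*. The promoters of *Plin2* and *Fgf21* are shown because they alone of the 6 held any match, and both genes rose at 12 h after APAP. They are printed 5′ to 3′ on the minus strand, 250 bases each, ending at the base before the start. Capitals mark the DR1 match on the opposite strand, 225 to 213 bases before the start, in the first (chr4:86670060-86670309) and the ATF4 element on the opposite strand, 139 to 132 bases before the start, in the second (chr7:45615491-45615740).
Plin2: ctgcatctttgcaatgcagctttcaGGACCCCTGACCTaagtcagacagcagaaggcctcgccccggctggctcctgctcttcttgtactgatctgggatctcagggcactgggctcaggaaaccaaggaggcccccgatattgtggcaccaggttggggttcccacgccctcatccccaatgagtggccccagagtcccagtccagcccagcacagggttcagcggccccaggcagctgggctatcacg
Fgf21: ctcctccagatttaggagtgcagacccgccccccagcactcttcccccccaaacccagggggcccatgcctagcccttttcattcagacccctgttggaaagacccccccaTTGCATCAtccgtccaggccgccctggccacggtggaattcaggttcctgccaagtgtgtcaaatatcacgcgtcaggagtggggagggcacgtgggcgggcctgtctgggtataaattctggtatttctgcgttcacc
A match describes letters and is not evidence of binding, and a promoter without one may carry a site outside this window.

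At 0 h, before APAP, 6 of the 9 genes were higher in all 6 mice of the HKO cohort (HKO and Null control) than in all 8 mice of the LKO cohort (LKO and control), and none was lower in all. Over 13960 genes with enough counts, 4.4% lay above in the same way and 4.05% below, 8.45% in all. This comparison of cohorts was added after the values were seen and is given without a test.

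*Cpt1a*, which encodes the carnitine palmitoyltransferase that admits long-chain fatty acids to mitochondria, had 1134, 1076 and 829 CPM in Null control, 970, 726 and 898 in HKO, 307, 414, 346 and 426 in control and 339, 441, 365 and 283 in LKO mice. The mean of the HKO cohort was 2.57 times that of the LKO cohort. Within each cohort, knockout and control mice overlapped. *Ehhadh*, the bifunctional enzyme of peroxisomal β-oxidation, had 1634, 1458 and 1377 CPM in Null control, 2823, 2389 and 1939 in HKO, 475, 325, 366 and 553 in control and 281, 463, 398 and 409 in LKO mice. The ratio of cohort means was 4.73, and all 3 HKO mice lay above all 3 Null control mice.

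The largest cohort ratios were those of the microsomal ω-hydroxylases. *Cyp4a10* had 4701, 4659 and 4319 CPM in Null control, 3889, 4738 and 3246 in HKO, 214, 13.8, 36.3 and 806 in control and 36.7, 817, 119 and 434 in LKO mice. *Cyp4a14* had 2736, 1843 and 1555 CPM in Null control, 4823, 4149 and 1858 in HKO, 54.1, 1.21, 0.679 and 417 in control and 2.80, 652, 37.8 and 142 in LKO mice. The ratio of cohort means was 13.8 for *Cyp4a10* and 17.3 for *Cyp4a14* and that of medians, which the few high mice of the LKO cohort weigh on less, 27 and 50, and no mouse of the LKO cohort came near the lowest of the HKO cohort. *Acot3*, a peroxisomal acyl-CoA thioesterase, overlapped between cohorts, with 57.9, 92.2 and 106 CPM in Null control, 20.0, 32.8 and 31.3 in HKO, 18.5, 0.567, 0 and 44.9 in control and 0.684, 21.2, 24.2 and 33.1 in LKO mice. The 0 was a library without a single count, which allows up to 3.

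*Pdk4*, the kinase that inactivates pyruvate dehydrogenase and so spares glucose, had 12.0, 11.3 and 9.35 CPM in Null control, 33.5, 30.3 and 12.4 in HKO, 4.64, 4.75, 7.97 and 5.11 in control and 4.86, 6.63, 5.36 and 7.59 in LKO mice. The hepatokine *Fgf21* had 16.3, 14.3 and 9.16 CPM in Null control, 28.6, 19.7 and 20.1 in HKO, 2.70, 0.780, 0.848 and 2.83 in control and 3.15, 4.65, 2.42 and 4.15 in LKO mice. Both genes were low, and their cohort ratios were 3.10 and 6.70.

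*Plin2*, which coats lipid droplets, had 524, 433 and 386 CPM in Null control, 862, 594 and 622 in HKO, 338, 264, 284 and 373 in control and 243, 379, 321 and 442 in LKO mice. *Angptl4*, a secreted inhibitor of lipoprotein lipase, had 392, 345 and 341 CPM in Null control, 333, 313 and 260 in HKO, 260, 361, 264 and 319 in control and 288, 273, 257 and 284 in LKO mice. These 2 genes overlapped between cohorts and had the smallest ratios, 1.72 and 1.15.

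**Figure D1:**
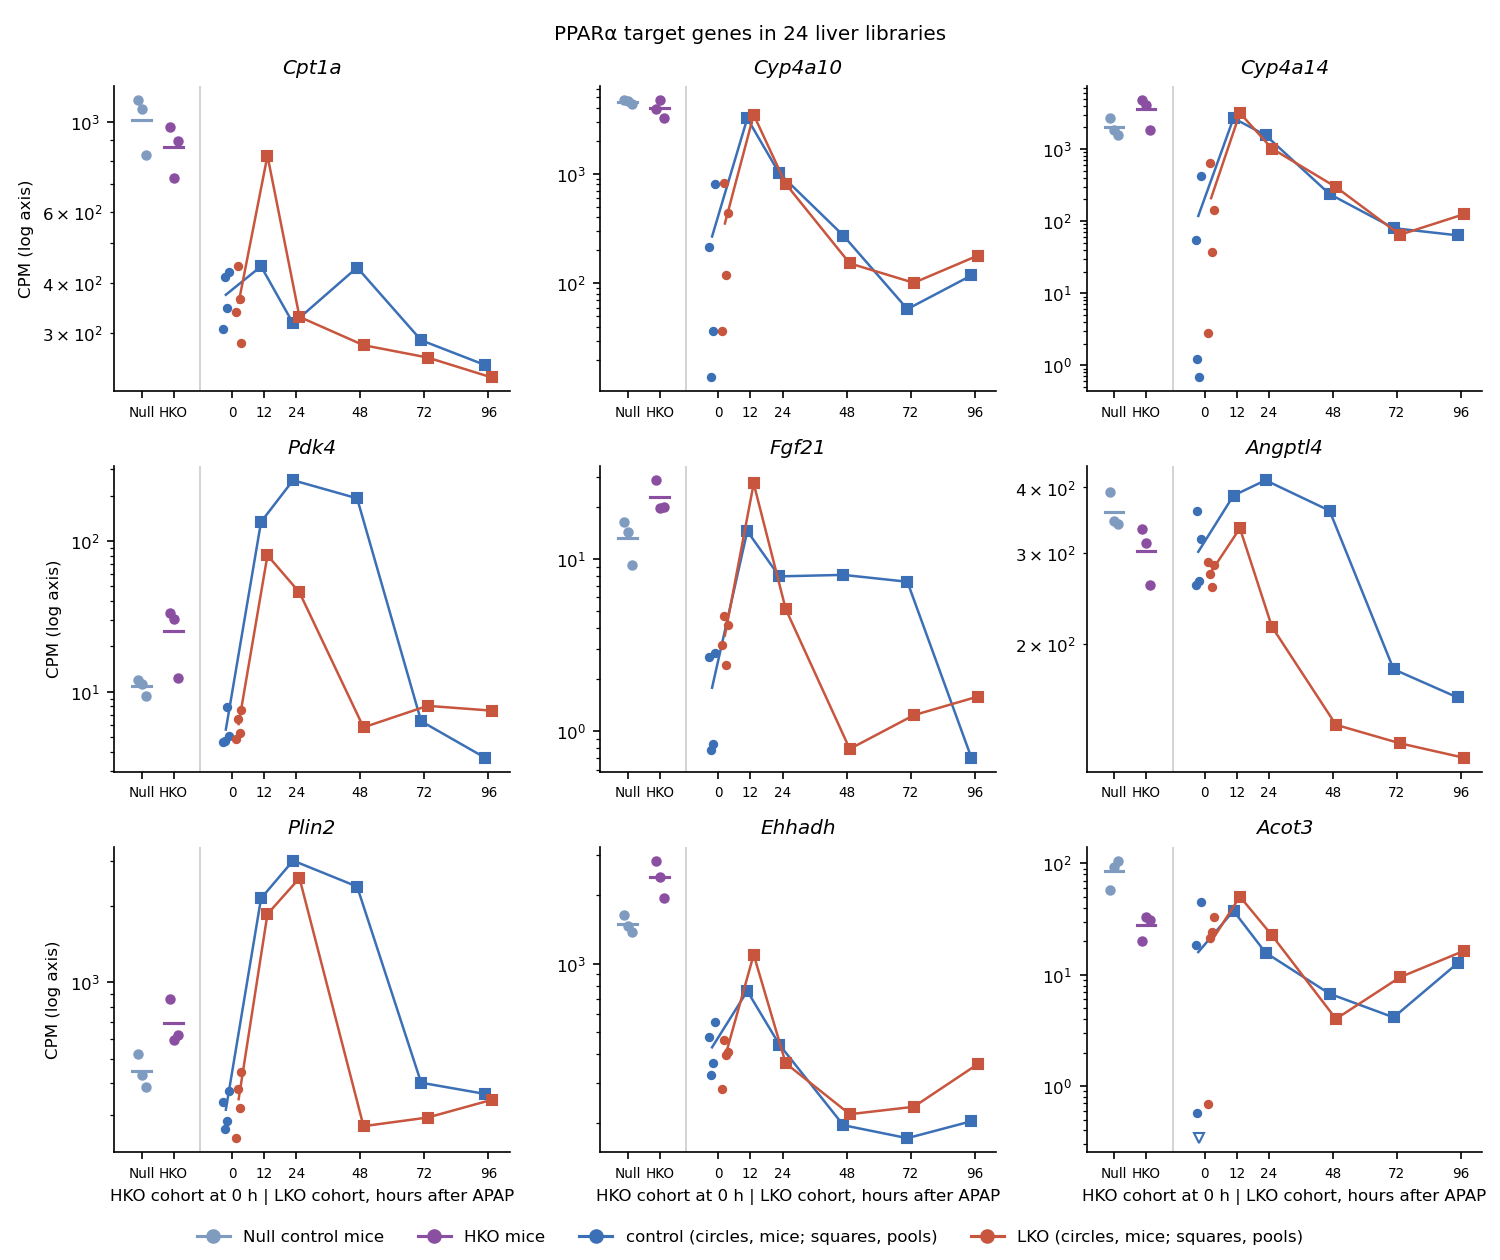
CPM of the 9 genes on a log axis, in the HKO cohort at 0 h (left of the grey line, circles are mice and bars are means) and in the LKO cohort over time after APAP (circles are mice at 0 h, squares are pools of 3 mice, lines join the mean at 0 h to the pools). The open triangle is a mouse with 0 counts of Acot3; Cyp4a14 spanned 0.679 to 652 CPM over the 8 mice of the LKO cohort at 0 h and reached 2688 and 3169 CPM in the pools at 12 h.

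Per length, *Cyp4a10* was the most abundant of the 9 in Null control liver (mean 2162 RPKM, which is CPM per kilobase of exon) and *Pdk4* the least (3.10 RPKM). In control mice of the LKO cohort the order differed, with *Ehhadh* highest (144 RPKM), *Cyp4a10* next (127 RPKM) and *Pdk4* lowest by the mean (1.60 RPKM). *Cyp4a10* and *Ehhadh* do not differ there beyond their spread between mice, nor do *Pdk4* and *Fgf21* (mean 1.88 RPKM). In control replicates 2 and 3 both *Acot3* (0.165 and 0 RPKM) and *Fgf21* (0.820 and 0.892 RPKM) lay below *Pdk4* (1.35 and 2.27 RPKM).

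Some other genes of fatty acid oxidation were likewise higher in the HKO cohort. All 6 of its mice lay above all 8 of the LKO cohort for 10 of 22 genes of the carnitine shuttle and mitochondrial β-oxidation (among them *Hadha*, *Acadm* and *Slc25a20*), 7 of 15 peroxisomal β-oxidation genes, 5 of 10 other PPARα targets and 3 of 9 acyl-CoA thioesterases, and none of these lists had a gene below, against 4.4% of all genes above and 4.05% below. Of 8 genes of ketogenesis and ketone export 2 lay above and of 16 lipid droplet genes 3, with none below in either list, and none of 6 pyruvate dehydrogenase regulators stood apart. Of 8 other genes of microsomal ω-oxidation 2 lay above, *Cyp4a31* and *Cyp4a32*, and *Cyp4f14* lay below, with 132 to 194 CPM against 331 to 425. The receptor *Ppara* had 355 to 600 CPM in the HKO cohort and 177 to 335 in the LKO cohort, while its partner *Rxra* overlapped (460 to 609 and 400 to 607 CPM).

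Of 10 genes known to be high in the fed liver, 3 lay below in all 6 mice of the HKO cohort. The lipogenic regulator *Srebf1*, 1 of them, had 43.1 to 110 CPM against 152 to 585. The 8 genes high in the fasted liver overlapped throughout. The cohorts also differed in the share of reads on no gene, 12.6% to 14.7% in the HKO cohort against 8.47% to 10.7% in the LKO cohort at 0 h, and in the use of a virus. Markers of other cells and of the pericentral zone differed as well. Of 8 endothelial markers *Clec4g*, *Gpr182* and *Oit3* lay below in all 6 mice of the HKO cohort, and the 8 summed to 151 to 248 CPM there against 240 to 305. Of 8 pericentral genes *Cyp1a2* and *Rgn* lay below and *Axin2* above, while their sum overlapped (9566 to 13200 against 7344 to 13191 CPM). *Col3a1* was the only 1 of 8 stellate and fibroblast markers below and *Krt7* the only 1 of 6 cholangiocyte markers, and all 8 macrophage and all 7 neutrophil markers measured overlapped. The part of these shifts in the cohort difference of the 9 genes was not tested. Cohort, virus, handling and feeding cannot be told apart.

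Among the 8 mice of the LKO cohort at 0 h the levels varied far more for some genes than for others. The highest mouse had 961 times the *Cyp4a14* of the lowest, a mouse with 8 counts, and 59.1 times the *Cyp4a10*, against 1.41 times for *Angptl4*, 1.56 for *Cpt1a* and 1.72 for *Pdk4*. Control replicates 2 and 3 and LKO replicate 1 were the 3 lowest mice for 5 genes, *Cyp4a10*, *Cyp4a14*, *Plin2*, *Ehhadh* and *Acot3*. In the same 3 mice *Tat*, a gluconeogenic aminotransferase raised by glucocorticoids, was highest, at 4808 to 6815 CPM against 1722 to 2899 in the other 5. Their libraries also stood apart, with 12.0%, 20.6% and 13.5% of reads unmapped against 4.11% to 7.2% in the other 5 mice, and with the fewest reads on genes (12665686 to 15186513 against 16718757 to 19046197). The part of library quality in these levels was not tested. The spread crossed both genotypes and gave wide standard errors for the Cyp4a genes and *Acot3* in every test that used these mice.

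In the HKO cohort the question was whether loss of E2F7 and E2F8 in adult hepatocytes changed these genes before APAP. None of the 9 was called different between HKO and Null control livers, where a call needs an adjusted p below 0.05 together with a change of 1.5-fold or more. Of all 12397 genes tested 1.19% were called, 0.484% higher and 0.702% lower in HKO. An unadjusted p under 0.05 was found for 5 of the 9 and for 1558 of the 12397, and DESeq2 called the same 5 genes (*Ehhadh*, *Acot3*, *Plin2*, *Fgf21* and *Pdk4*) and 331 in all.

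By edgeR's quasi-likelihood test *Ehhadh* was nearest to the threshold, with a mean of 2384 ± 442 CPM in HKO and 1489 ± 131 in Null control mice (SD, n = 3 each), a log2 fold change of 0.68 ± 0.14 (standard error) and an adjusted p of 0.0502. *Acot3* was lower in HKO, 28.0 ± 6.97 against 85.3 ± 24.7 CPM (SD, n = 3 each), a log2 fold change of -1.60 ± 0.28 (adjusted p = 0.0605, edgeR). The differences of *Plin2* (0.64 ± 0.16, adjusted p = 0.113), *Fgf21* (0.79 ± 0.23, 0.165) and *Pdk4* (1.23 ± 0.37, 0.239) were larger than their standard errors but missed the threshold. For *Cyp4a14* the log2 difference was 0.83 ± 0.41, for *Angptl4* -0.25 ± 0.12, for *Cpt1a* -0.22 ± 0.15 and for *Cyp4a10* -0.20 ± 0.14, with adjusted p from 0.422 to 0.651.

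HKO and Null control mice did not overlap for 6 of the 9 genes, higher in HKO for *Pdk4*, *Fgf21*, *Plin2* and *Ehhadh* and lower for *Angptl4* and *Acot3*, against 17.3% of all genes. The share of unmapped reads did not overlap either, 8.95% to 12.5% in Null control and 5.72% to 7.25% in HKO libraries, and its part in these differences was not tested. Without the 2 Null control libraries above 10% unmapped reads, an alternative chosen after seeing the data that leaves 1 Null control mouse and takes it to vary like the HKO mice, none of the 9 was called, 19 genes were called in all, and the log2 difference was 0.79 for *Ehhadh*, -1.92 for *Acot3* and 1.45 for *Pdk4*. The median log2 difference of the 9 was 0.64 and that of all genes tested 0.01. Single mice decided calls. Without Null control replicate 1 *Acot3* was called (-1.82), and without HKO replicate 3, the HKO mouse with the lowest *Pdk4*, both *Pdk4* (1.56) and *Ehhadh* (0.81) were.

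Among related genes, the lactate and ketone transporter *Slc16a1* rose in HKO, the only one of 8 genes of ketogenesis and ketone export to be called, with a log2 fold change of 0.97 ± 0.14 (adjusted p = 0.00974, edgeR). The peroxisomal carnitine acyltransferase *Crot* rose by 0.79 ± 0.10 (adjusted p = 0.00413), 1 of 15 peroxisomal genes, while *Acot4* (-0.70 ± 0.13) and the lipid droplet protein *Fitm1* (-0.98 ± 0.20) fell, each the single call in its list. None of 21 genes of mitochondrial β-oxidation, 13 of PPAR receptors and cofactors or 9 other PPARα targets was called. The strongest call among all the lists was *Thrsp*, a lipogenic gene and the only 1 of 10 genes high in the fed liver to be called, which fell by 2.80 ± 0.18 (adjusted p = 0.000135, edgeR). The glucocorticoid-responsive *Tsc22d3* fell by 0.70 ± 0.13 (adjusted p = 0.0302), 1 of 6 in its list, and the hypoxia-responsive *Ndrg1* rose by 1.03 ± 0.20 (adjusted p = 0.0324), 1 of 8, while none of 8 genes high in the fasted liver was called.

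Deletion from before birth gave no called difference either. Between LKO and control mice at 0 h none of the 9 genes and 0% of 12426 genes were called by edgeR's quasi-likelihood test, 1 of the 9 and 334 of all had an unadjusted p under 0.05, and DESeq2 called none of the 9 and 3 in all. *Fgf21* was the 1, with 3.59 ± 1.00 CPM in LKO and 1.79 ± 1.13 in control mice (SD, n = 4 each), a log2 difference of 0.98 ± 0.42 (adjusted p = 0.999, edgeR). The values of both genotypes overlapped for all 9 genes, where 1.83% of all genes did not overlap. Without the 3 libraries above 10% unmapped reads none of the 9 was called either, and *Fgf21* differed by 0.44.

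For *Cyp4a14* (0.84 ± 2.09), *Acot3* (0.31 ± 1.51) and *Cyp4a10* (0.41 ± 1.42) the standard error was wide and exceeded the difference. At this spread even a difference well beyond several fold could go uncalled. The narrowest errors were those of *Angptl4* (-0.12 ± 0.14), *Cpt1a* (-0.06 ± 0.17), *Plin2* (0.14 ± 0.19) and *Ehhadh* (-0.14 ± 0.20).

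Whether the LKO effect differed from the HKO effect was tested directly, and none of the 9 and 0% of 12945 genes were called by edgeR's quasi-likelihood test. An unadjusted p under 0.05 was found for 2 of the 9, *Ehhadh* (LKO effect minus HKO effect -0.83 ± 0.28, adjusted p = 0.933) and *Pdk4* (-1.10 ± 0.41, adjusted p = 1), and for 562 genes in all, and DESeq2 called none of the 9 and 21 in all.

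**Figure D2:**
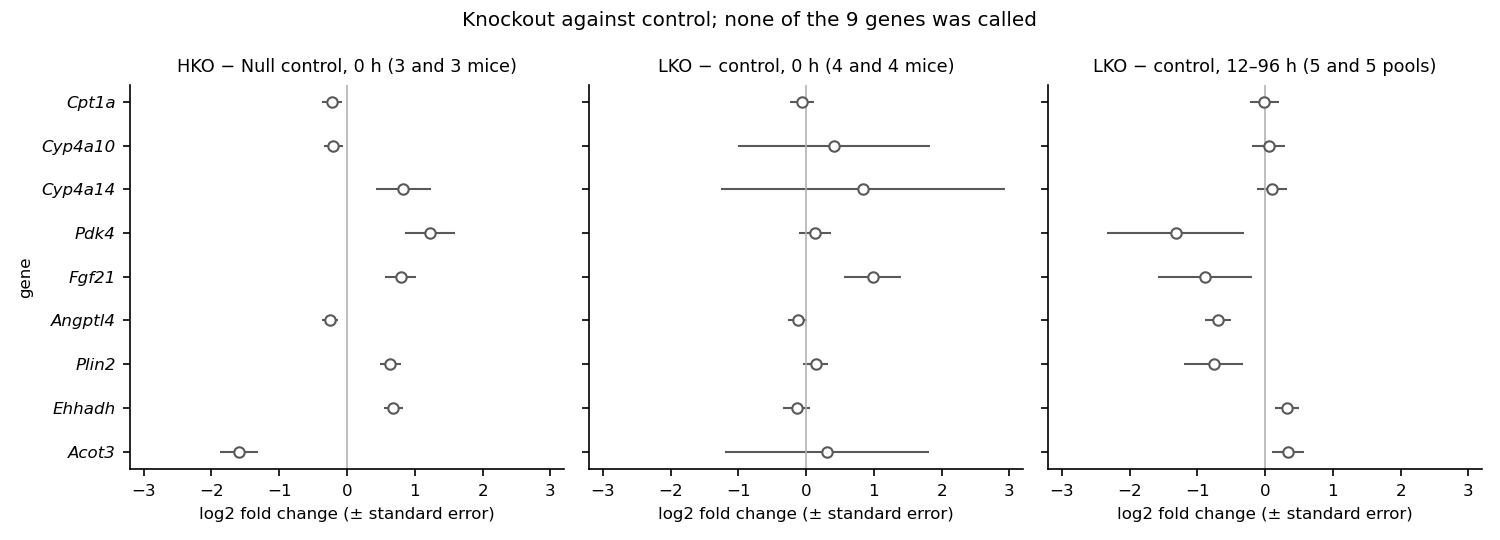
Log2 fold change (points) and standard error (bars) of the 9 genes in HKO against Null control mice at 0 h, LKO against control mice at 0 h and LKO against control pools over 12 to 96 h. None was called; the widest errors are those of Cyp4a14 (2.09) and Acot3 (1.51) among the mice of the LKO cohort at 0 h.

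After APAP, with both genotypes in the fit, 6 of the 9 genes rose at 12 h, where 30.8% of 13855 genes were called, 16.6% higher and 14.2% lower. *Pdk4* and *Plin2* were still up at 24 h and 48 h, *Ehhadh* was down at 48 h and 72 h and *Angptl4* at 72 h, and none was called at 96 h. The 5 time points were compared with the same 8 mice at 0 h. In these fits the error comes from the spread of mice at 0 h and from the deviation of the 2 pools of a time point from additive effects of genotype and time.

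*Pdk4* had 134, 253, 192, 6.38 and 3.65 CPM in the control pools at 12, 24, 48, 72 and 96 h and 80.4, 45.6, 5.81, 8.07 and 7.50 CPM in the LKO pools. At 12 h and 24 h both pools lay above all 8 mice at 0 h, whose highest value was 7.97 CPM. By edgeR's quasi-likelihood test the log2 change was 4.12 ± 0.70 at 12 h (adjusted p = 0.00095), 4.45 ± 0.72 at 24 h (adjusted p = 0.00106) and 3.75 ± 0.78 at 48 h (adjusted p = 0.00678). The call at 48 h rested on the control pool, since with the LKO libraries alone the change was -0.07.

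*Plin2* was also high from 12 h to 24 h in both genotypes and to 48 h in the control pools, with 2145, 3021, 2387, 402 and 363 CPM in the control pools and 1860, 2577, 271, 293 and 344 CPM in the LKO pools. Its highest value at 0 h was 442 CPM. The log2 change was 2.59 ± 0.39 at 12 h (adjusted p = 0.000212, edgeR), 3.07 ± 0.39 at 24 h (adjusted p = 0.000106) and 1.85 ± 0.42 at 48 h (adjusted p = 0.00818), and with the LKO libraries alone it was -0.35 at 48 h.

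*Fgf21* had 14.5, 7.92, 8.08, 7.37 and 0.702 CPM in the control pools and 27.4, 5.12, 0.790, 1.24 and 1.59 CPM in the LKO pools. It rose at 12 h by a log2 change of 2.96 ± 0.66 (adjusted p = 0.00402, edgeR). Through 72 h the control pools stayed above the 4 control mice (0.780 to 2.83 CPM), whereas the LKO pools from 48 h on lay below the 4 LKO mice (2.42 to 4.65 CPM).

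The ω-hydroxylases were highest at 12 h in both genotypes and lower at every later time. *Cyp4a10* had 3212, 1010, 273, 58.1 and 118 CPM in the control pools and 3463, 810, 152, 101 and 179 CPM in the LKO pools, and *Cyp4a14* had 2688, 1562, 238, 80.1 and 63.6 CPM and 3169, 1018, 297, 64.8 and 125 CPM. At 12 h both pools of both genes lay above all 8 mice at 0 h. *Cyp4a10* rose by a log2 change of 3.47 ± 1.04 (adjusted p = 0.0236, edgeR), and by 3.61 and 3.30 in the control and LKO libraries alone, which was not called with 1 pool, while that of *Cyp4a14*, 4.23 ± 1.53, missed the threshold (adjusted p = 0.0508). *Cyp4a14* was called without control replicate 3 (4.02), control replicate 4 (5.17) or LKO replicate 2 (5.06). From 48 h on the pools of both genes were within the wide range of the mice of their genotype at 0 h.

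*Ehhadh* rose and then fell below its starting level, with 758, 442, 196, 172 and 204 CPM in the control pools and 1094, 366, 219, 236 and 363 CPM in the LKO pools. The log2 change was 1.18 ± 0.22 at 12 h (adjusted p = 0.00071, edgeR), -0.99 ± 0.26 at 48 h (adjusted p = 0.0136) and -1.02 ± 0.26 at 72 h (adjusted p = 0.0105). The control pools at 48, 72 and 96 h lay below all 4 control mice, and the LKO pools at 48 and 72 h below all 4 LKO mice. The LKO pool at 96 h was within their range. With the libraries of a single genotype each time is 1 pool taken to vary like the 4 mice. There the change was 0.84 in control at 12 h, -1.14 in control and -0.82 in LKO at 48 h and -0.74 in LKO at 72 h, none of which was called. The calls in LKO at 12 h and in control at 72 h were kept. Those pools differed from the mean log2 CPM of their 4 mice by 1.52 and -1.29.

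*Cpt1a* had 439, 317, 436, 288 and 250 CPM in the control pools and 825, 329, 280, 261 and 233 CPM in the LKO pools. It rose at 12 h by 0.81 ± 0.21 (adjusted p = 0.00792, edgeR), but by only 0.25 with the control libraries alone, where it was not called. *Angptl4* had 386, 413, 361, 179 and 158 CPM in the control pools and 334, 216, 140, 129 and 121 CPM in the LKO pools. It fell by 0.94 ± 0.24 at 72 h (adjusted p = 0.0102), a change of -0.74 that was not called with the control libraries alone, and its change at 96 h was -1.08 ± 0.24 (adjusted p = 0.0512), which DESeq2 called.

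*Acot3* had 37.5, 15.8, 6.75, 4.14 and 12.7 CPM in the control pools and 50.4, 22.6, 4.01, 9.50 and 16.4 CPM in the LKO pools. Its highest level was at 12 h, but with 0 to 44.9 CPM among the mice at 0 h no change was called at any time in the fit with all 8 of these mice (log2 change 1.31 ± 1.19 at 12 h, adjusted p = 0.418, edgeR).

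All 10 pools had 2.63% to 5.84% of reads unmapped, against 4.11% to 20.6% in the mice at 0 h. Without the 3 libraries at 0 h above 10% the 6 genes called at 12 h were joined by *Cyp4a14* (3.53), and the counts of the 9 called were 2 at 24 h, 4 at 48 h, 4 at 72 h and none at 96 h. The genes added were *Acot3*, lower at 48 h (-2.37) and 72 h (-2.06), and *Cyp4a10*, lower at 72 h (-2.58). The 3 libraries left out were those with the least *Cyp4a10*, *Cyp4a14* and *Acot3*, so leaving them out raises the level at 0 h of these genes. This alternative was chosen after seeing the data. The control pool at 12 h stood apart in the share of reads on no gene, with 13.6%. The other pools had at most 10.9% and the mice of the LKO cohort at 0 h 8.47% to 10.7%. The part of this in the changes at 12 h was not tested.

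**Figure D3:**
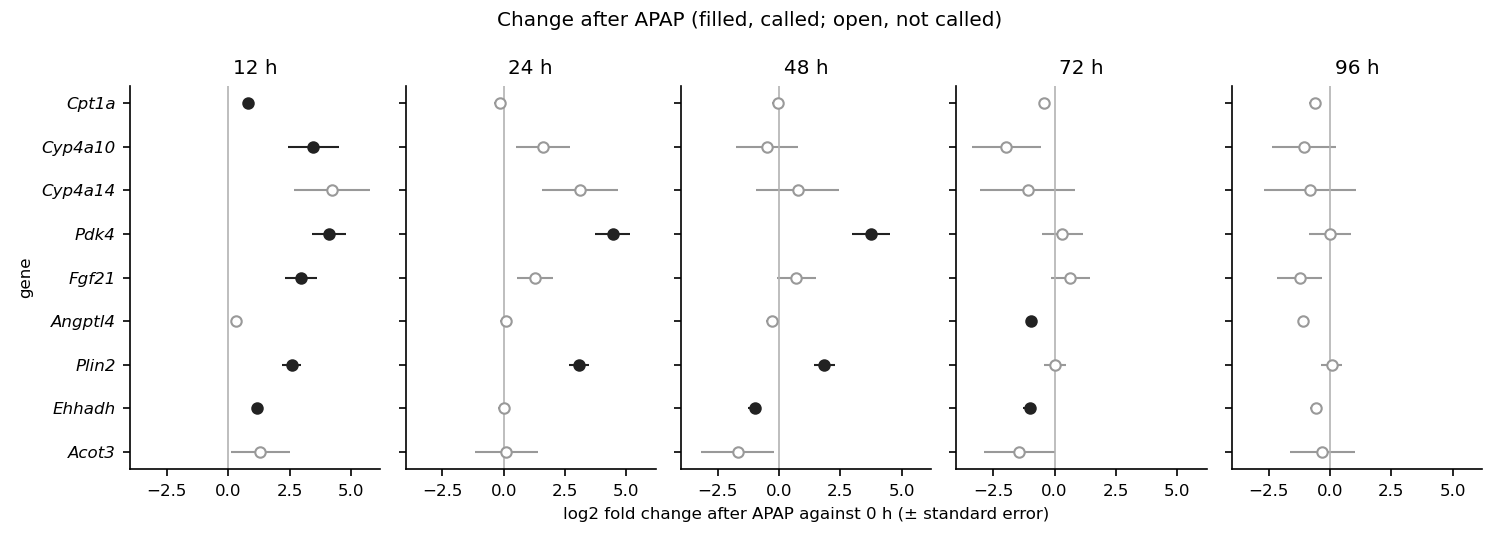
Log2 fold change after APAP against 0 h (points) with its standard error (bars) for the 9 genes at 12, 24, 48, 72 and 96 h, over both genotypes. Filled points were called: 6 higher at 12 h, 2 higher at 24 h, 2 higher and 1 lower at 48 h, 2 lower at 72 h and none at 96 h.

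At 24 h, 2 of the 9 were called, both higher, where 25.3% of all genes were called (13.8% higher, 11.5% lower). At 48 h 2 were higher and 1 lower, against 16.2% of all genes (9.78% higher, 6.45% lower), and at 72 h 2 were lower, against 16.7% (10.9% higher, 5.8% lower). None was called at 96 h, when 0.455% of genes were (0.332% higher, 0.123% lower). At 96 h 3 of the 9 and 2098 of all genes had an unadjusted p under 0.05 by edgeR's quasi-likelihood test. The 9 genes had a median log2 change of 2.59 at 12 h and 1.27 at 24 h, then of -0.04, -0.94 and -0.61 at the later times, and that of all genes was between -0.03 and 0 throughout.

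Other cell types and zones moved over the same hours. The summed level of 8 pericentral hepatocyte genes, such as *Cyp2e1* and *Glul*, was 7344 to 13191 CPM in the 8 mice at 0 h, 5053 and 4435 in the control and LKO pools at 12 h and 856 and 3652 at 48 h. Of the 8, 5 fell and 1 rose at 12 h, and 7 fell at 24 h and 6 at 48 h. The 8 macrophage markers summed to 110 to 271 CPM in these 8 mice at 0 h and to 581 and 576 at 72 h, when 5 of them rose, and the 8 stellate and fibroblast markers to 108 to 202 CPM at 0 h and 1119 and 713 at 72 h, when all 8 rose. The 7 neutrophil markers measured summed to at most 26.8 CPM in any library, and the 3 of them that were tested rose at 24 h. The part of these shifts in the changes of the 9 genes was not tested.

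Between the genotypes after APAP, time was taken as a block so that only a difference common to the 5 times could be found, and none of the 9 was called, against 0.532% of 12782 genes (0.235% higher and 0.297% lower in LKO). By edgeR's quasi-likelihood test 1 of the 9 and 2266 of all genes had an unadjusted p under 0.05, and DESeq2 called 1 of the 9 and 606 in all. That gene was *Angptl4*, lower in LKO at all 5 time points, with a log2 difference of -0.70 ± 0.19 (adjusted p = 0.106, edgeR). *Pdk4* (-1.32 ± 1.01), *Fgf21* (-0.89 ± 0.69) and *Plin2* (-0.76 ± 0.44) had larger or similar differences with wide errors, because the gap between the pools changed with time. *Ehhadh* was at 0.32 ± 0.18, *Acot3* at 0.34 ± 0.24, and *Cyp4a10* (0.05 ± 0.24), *Cyp4a14* (0.10 ± 0.22) and *Cpt1a* (-0.01 ± 0.21) were near 0.

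The largest gaps between single pools were at 48 h. There the LKO pool was at least 2-fold lower for 4 of the 9 genes (9.83% of all genes) and at least 2-fold higher for none (7.47%), on log2 CPM with a prior count of 2. The LKO minus control difference was -5.02 for *Pdk4* (192 CPM in control, 5.81 in LKO), -3.18 for *Fgf21*, -3.14 for *Plin2* and -1.36 for *Angptl4*. *Cpt1a* (-0.64), *Cyp4a10* (-0.84) and *Acot3* (-0.73) differed by less, and *Cyp4a14* (0.32) and *Ehhadh* (0.16) the other way. With 1 pool per genotype and time these differences have no replicate check.

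At 12 h no gene of the 9 was 2-fold apart in either direction (12.1% of all genes were lower and 9.3% higher in LKO), *Cpt1a* and *Fgf21* being highest in LKO at 0.91 each. At 24 h only *Pdk4* was (-2.47, against 5.3% lower), and *Angptl4* was at -0.94. At 72 h *Fgf21* was lower in LKO (-2.49, 7.36%) and *Acot3* higher (1.17, 6.46%). At 96 h *Pdk4* and *Fgf21* were both higher by 1.01 (6.28%), from 3.65 to 7.50 CPM and from 0.702 to 1.59 CPM.

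**Figure D4:**
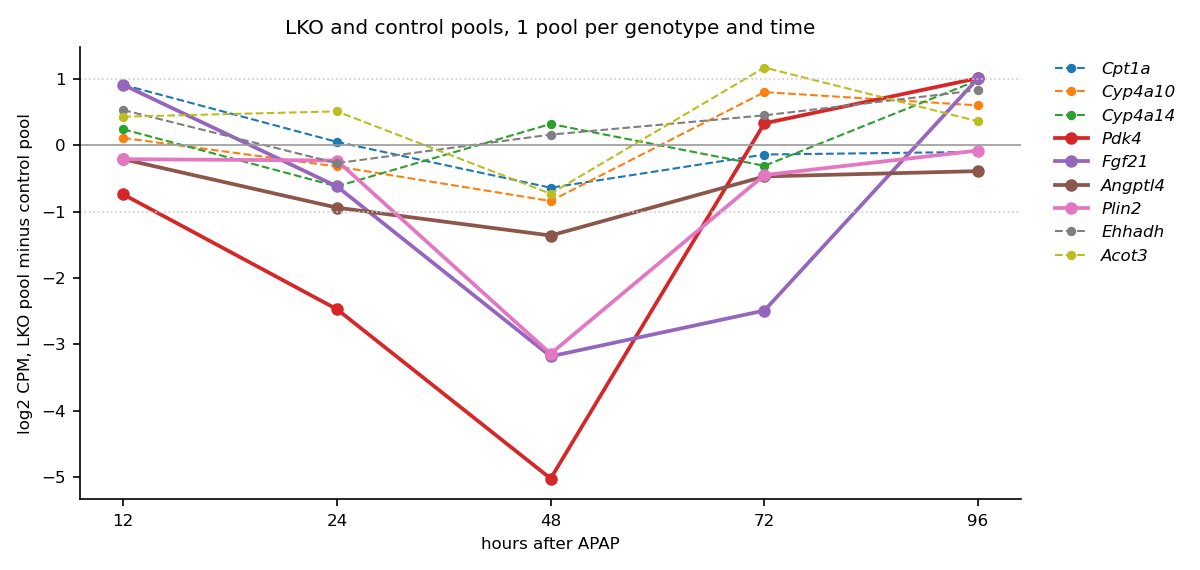
Log2 CPM of the LKO pool minus that of the control pool (prior count 2) for the 9 genes at 12, 24, 48, 72 and 96 h after APAP, 1 pool of 3 mice per genotype and time; dotted lines mark a 2-fold difference. Pdk4, Plin2, Fgf21 and Angptl4 (solid lines) dip at 48 h, to -5.02, -3.14, -3.18 and -1.36.

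Against the mice of their own genotype at 0 h, by the mean of log2 CPM, 6 of the 9 genes were at least 2-fold higher in the control pool at 12 h (16.4% of all genes) and 8 in the LKO pool (10.8%). None of the 9 was 2-fold lower at 12 h (14.3% of all genes in the control and 11.2% in the LKO pool) or at 24 h (10% and 8.61%), when 6 in the control pool (12.4%) and 5 in the LKO pool (9.26%) were higher. At 48 h it was still 6 in the control pool (14.6%) and 1, *Cyp4a14*, in the LKO pool (8.44%), while *Ehhadh* was 2-fold lower in the control pool (8.88%) and *Fgf21* and *Acot3* in the LKO pool (5.04%). At 72 h 2 genes were higher (15.7%) and *Ehhadh* lower (8.09%) in the control pool, against none higher (9.83%) and *Fgf21* and *Angptl4* lower (2.84%) in the LKO pool. At 96 h 2 were higher (6.44%) and *Ehhadh* lower (4.58%) in the control pool, and 1 was higher (4.3%) and *Fgf21* and *Angptl4* lower (2.99%) in the LKO pool. The mean of log2 CPM is pulled down by mice with few counts, and for *Cyp4a10*, *Cyp4a14* and *Acot3* the pools from 48 h on lay within the range of their mice at 0 h. Against the arithmetic mean of CPM, chosen after seeing the data, 6 genes (16.7% of all genes) and 8 (10.7%) were again 2-fold higher in the control and LKO pools at 12 h and none lower (17.3% and 13.7%), and at 24 h 5 (13%) and 4 (9.61%) were higher and none lower (12.2% and 10.8%). At 48 h 4 were higher in the control pool (*Cyp4a14*, *Pdk4*, *Fgf21* and *Plin2*, 15.2%) and none in the LKO pool (8.66%), while 2 were lower in the control (*Ehhadh* and *Acot3*, 10.5%) and 3 in the LKO pool (*Cyp4a10*, *Fgf21* and *Acot3*, 7.11%). *Acot3* in the control pool at 48 h thus turned from 2-fold higher to 2-fold lower with the choice of mean. At 72 h *Fgf21* was higher in the control pool (16%) and none in the LKO pool (10.5%), with 3 lower in the control (*Cyp4a10*, *Ehhadh* and *Acot3*, 10.2%) and 5 in the LKO pool (*Cyp4a10*, *Cyp4a14*, *Fgf21*, *Angptl4* and *Acot3*, 4.2%). At 96 h none was higher in either pool (6.74% and 4.63%), and 3 were lower in the control (*Cyp4a10*, *Fgf21* and *Ehhadh*, 7.77%) and 2 in the LKO pool (*Fgf21* and *Angptl4*, 5.19%). At 96 h the fits above likewise gave changes below 0 for *Cyp4a14* (-0.81 ± 1.88) and *Acot3* (-0.31 ± 1.33), neither called. At 48 h the 8 pericentral genes summed to 856 CPM in the control pool and 3652 in the LKO pool and the 6 cholangiocyte markers to 217 and 87.0 CPM. The part of these gaps in the differences was not tested.

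Genes with related roles were described over the same time points, with the counts called by edgeR's quasi-likelihood test among those tested. The shares of all genes called higher and lower, against which each count is to be read, were 16.6% and 14.2% at 12 h, 13.8% and 11.5% at 24 h, 9.78% and 6.45% at 48 h and 10.9% and 5.8% at 72 h. Of 15 lipid droplet and lipolysis genes 7 rose and 1 fell at 12 h, led by *Fitm2* (1.35 ± 0.19, adjusted p = 5.52e-05), the triglyceride lipase *Pnpla2* (1.10 ± 0.18, adjusted p = 0.000209) and *Hilpda*, an inhibitor of that lipase (5.41 ± 0.80, adjusted p = 0.000406). At 24 h 4 rose and 1 fell, and *Cidec*, which enlarges droplets, rose by 5.25 ± 0.78 (adjusted p = 0.000664). *Cidec* had 428 CPM in the control pool and 3.22 in the LKO pool at 48 h, and *Hilpda* 141 and 3.27, a gap in the direction of *Plin2* and *Pdk4*. Of all genes 9.83% were at least 2-fold lower in the LKO pool there. Over 12 to 96 h neither was called between the genotypes by edgeR's quasi-likelihood test. *Cidec* differed by -1.58 ± 1.26 (adjusted p = 0.571) and *Hilpda* by -2.99 ± 0.65 (adjusted p = 0.0993). Other genes of the list went both ways in that fit. At 72 h 4 of the 15 fell and none rose.

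Of the 8 genes of ketogenesis and ketone export 2 rose and 2 fell at 12 h, a count near these shares. The monocarboxylate transporter *Slc16a6*, which exports ketone bodies, rose by 4.13 ± 0.77 (adjusted p = 0.00171, edgeR), with 182 CPM in the control pool and 15.5 in the LKO pool. At 48 h 2 rose and 2 fell, and at 72 h 1 rose and 2 fell. *Oxct1*, used to burn ketone bodies and low in hepatocytes, fell by 1.70 ± 0.39 at 12 h and rose by 2.27 ± 0.28 at 72 h, to 19.3 CPM in the control pool and 15.9 in the LKO pool.

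Of 21 genes of the carnitine shuttle and mitochondrial β-oxidation tested 2 rose and none fell at 12 h, and 7 fell and none rose at 72 h, among them *Acsl1* (-1.31 ± 0.24, adjusted p = 0.000791, edgeR) and *Eci1* (-0.92 ± 0.17). Of 15 peroxisomal genes 2 rose and 2 fell at 12 h, *Pex11a*, which drives peroxisome division, rising by 1.39 ± 0.27, and 7 fell and none rose at both 48 h and 72 h, *Slc27a2* by 1.11 ± 0.19 at 48 h. Of 9 acyl-CoA thioesterases 3 rose and 1 fell at 12 h, with *Acot2* up by 4.42 ± 0.44 (adjusted p = 1.55e-05). *Cyp4a31*, whose sequence is partly shared with *Cyp4a10*, rose by 2.21 ± 0.52 at 12 h.

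The receptor *Ppara* itself was not called at any time point, with a log2 change from -0.62 ± 0.27 at 48 h to -0.17 ± 0.26 at 12 h. The value at 12 h joins pools that lay apart, since the control pool had 140 CPM, below all 4 control mice at 0 h (177 to 335 CPM), and the LKO pool 328 CPM, above all 4 LKO mice (197 to 298 CPM), a gap between single pools with no replicate check. The list of 13 receptors and cofactors had 1 call at 12 h, *Ppard* higher, and 7 lower at 24 h, led by *Lpin2* (-1.40 ± 0.27), *Lpin1* (-3.42 ± 0.80) and *Ppargc1b* (-1.59 ± 0.44). *Rxra* fell by 0.73 ± 0.21 at 72 h (adjusted p = 0.0224, edgeR). Among the pyruvate dehydrogenase regulators *Pdk2* fell as *Pdk4* rose, by 1.44 ± 0.25 at 12 h and by 2.15 ± 0.26 at 24 h (adjusted p = 3.37e-05). *Lpl*, the enzyme that ANGPTL4 inhibits, fell by 1.44 ± 0.35 at 12 h and rose by 2.30 ± 0.27 at 72 h.

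Over 12 to 96 h 3 genes of these lists were called higher in LKO than in control pools and none lower. Of all 12782 genes 0.235% were called higher and 0.297% lower. All lists together hold 232 genes, some of which were not tested. The 5 time points served as replicates in this fit, with 1 pool per genotype and time. Without single time points 8 to 181 genes were called in all, against 68 with all of them. Of the targeted genes *E2f8* was called higher (1.53 ± 0.21, adjusted p = 0.0255, edgeR) and *E2f7* was not called (-0.50 ± 0.48). *Acacb*, whose product makes the malonyl-CoA that blocks CPT1A, differed by 1.34 ± 0.24 (adjusted p = 0.0455, edgeR), fatty acid synthase (*Fasn*) by 1.28 ± 0.20 (adjusted p = 0.0285) and *G6pc* by 1.32 ± 0.23 (adjusted p = 0.0425). *Fasn* reached 1277 CPM in the LKO pool at 96 h against 353 in the control pool.

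**Figure D5:**
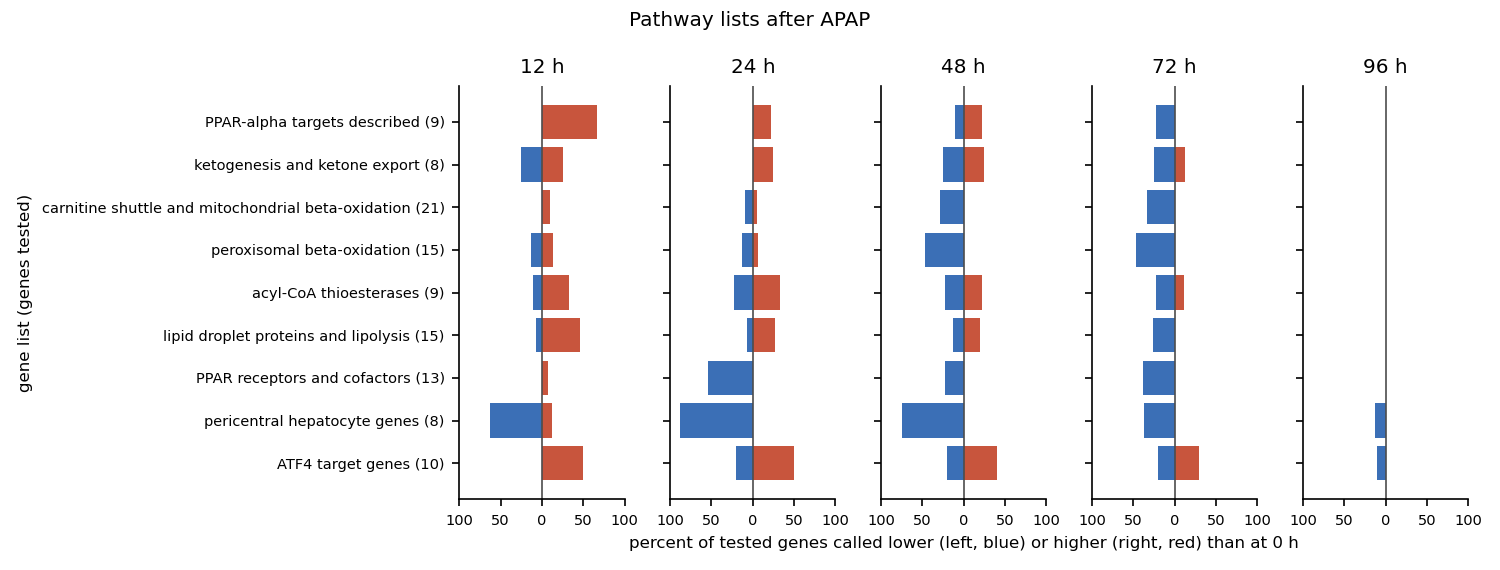
Percent of the tested genes of 9 lists that were called lower (left, blue) or higher (right, red) at each time after APAP than at 0 h; the number of genes tested is in parentheses. At 12 h 6 of the 9 genes described and 7 of 15 lipid droplet genes are higher, while 7 of 15 peroxisomal genes are lower at 48 h and 72 h.

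Across all 24 libraries the 9 genes fell into patterns, described by Pearson's r of log2 CPM without a test, since the libraries share cohorts and times. *Pdk4* and *Plin2* were most alike (r = 0.95), followed by *Cyp4a10* and *Cyp4a14* (0.93) and *Cpt1a* and *Ehhadh* (0.89), whereas *Ehhadh* and *Plin2* were little related (0.18). Among 13951 other genes those most like *Cyp4a10* were *Crat*, a carnitine acetyltransferase (0.94), *Pex19* (0.92) and *Trim80* (0.91). Those most like *Ehhadh* were *Acot1* (0.95), *Chrna2* (0.94) and *Hadha* (0.94), and like *Plin2* *1810032O08Rik* (0.92), *Cidec* (0.92) and *9130401M01Rik* (0.91). *Pdk4* was most like *Rab30* (0.92), *Fam71f2* (0.91) and *Taf1d* (0.91), and among the genes most like *Cpt1a* were *Bmp1* (0.93) and *Ctcflos* (0.92), while *Angptl4* was most like *Slc25a47* (0.86), *Grina* (0.85) and *Per1* (0.85). Among the genes most like *Fgf21* were *Crat* (0.86) and *Cntnap1* (0.86). *Cyp4a14* was most like *Rad51b* (0.89), *Acot2* (0.88) and *Pde4d* (0.86), and *Acot3* like *Acot4* (0.85), *Lpcat3* (0.82) and *Trim80* (0.82).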

How the data were processed

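RNA was measured by poly(A) RNA sequencing of snap-frozen liver. Per the study's methods and the submitters' processing notes, the authors trimmed reads with Trimmomatic (0.38), mapped them to mm10 with STAR (2.6.1a) and deposited raw counts of uniquely mapped reads per gene. The annotation release is not given in the sources used here. The unstranded column was used. STAR's summary rows, 18.7% to 39.9% of reads, name no gene and were left out. Reads from overlapping genes on opposite strands cannot be told apart.

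From the counts, CPM on TMM-scaled library sizes and RPKM by GENCODE exon length (GRCm38) were computed. Differences were tested on the deposited counts with edgeR (4.0.16, R 4.3.3, filterByExpr, TMM, robust quasi-likelihood F-test), and p-values were adjusted over every gene tested by the Benjamini-Hochberg method. HKO was compared with Null control and LKO with control over mice at 0 h, the 2 effects by a contrast over all 14 mice, LKO with control pools with time as a block, and each time after APAP with 0 h with genotype as a term. Standard errors are of log2 fold changes. The 0 h p-values measure the spread between mice, and each pool is a single value. Scripts were tested on simulated counts with 200 changed genes. Alternatives were other scaling, no filter, DESeq2 (1.42.0), no fold limit, the replicate number as a block, no time block, the libraries of a single genotype, and fits without each mouse or each time point. Fits without libraries above 10% unmapped reads and the arithmetic mean at 0 h were added after seeing the data.

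The members and the gene lists were chosen with earlier results of these data known. Named were the 9 genes, *Ppara*, *Rxra*, *E2f7* and *E2f8*, for each list up to 3 called genes with the smallest adjusted p and the 3 with the highest mean CPM, and for each of the 9 the 3 most correlated genes. Other genes named in the comparison of cohorts, *Tat*, and other genes given for a single time point were chosen after their values were seen. Some genes that this rule names are not reported here.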

Additional observations from a re-analysis of the deposited data

Results flagged for a closer look

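In 2 of the 18 pairs of a gene and a group of 4 mice at 0 h, 1 mouse stood apart from the other 3 by Dixon's criterion on CPM. Chance meets it in about 1 of 20 such groups when values are normally distributed. That rate need not hold for CPM taken without a log, which are skewed for *Cyp4a14*. *Cyp4a14* was at 417 CPM in control replicate 4, against 0.679, 1.21 and 54.1 CPM in the other control mice. *Pdk4* was at 7.97 CPM in control replicate 3, against 4.64, 4.75 and 5.11 CPM. Without control replicate 4 the log2 change of *Cyp4a14* at 12 h after APAP was 5.17 and called. Without control replicate 3 the log2 change of *Pdk4* at 96 h was 0.01 in place of -0.01, and neither value was called.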

How the results depend on the processing

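Of 1260 values of the 9 genes under the alternatives, 1150 kept their direction and their side of the threshold, 24 gained a call, 8 lost one and 78 turned direction. Between HKO and Null control mice 147 genes were called, 226 without the filter, 331 by DESeq2, 267 with the replicate block and 71 to 296 without single mice, and of the 9 none, 1 with library size alone or without the filter, 5 by DESeq2, 5 with the replicate block and 0 to 2 without single mice. Replicate numbers name mice only, and same-numbered mice deviated together in neither cohort (correlations 0.13, -0.04 and 0.07 in the HKO cohort and -0.33, -0.15, 0.07 and 0.18 in the LKO cohort). For LKO against control at 0 h the count of 0 became 3 by DESeq2 and 0 to 1 without single mice, and was 0 with the replicate block. Over 12 to 96 h the 68 genes became 37 with library size alone, 181 without the filter, 606 by DESeq2, 0 without the time block and 8 to 181 without single time points (8 without 12 h, 21 without 24 h, 11 without 48 h, 11 without 72 h, 181 without 96 h), and of the 9 DESeq2 called 1. For the LKO minus HKO effect 21 genes were called by DESeq2, 1 with the replicate block and 0 to 3 without single mice.

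With control libraries alone 3 of the 9 were called at 12 h and 1 at 72 h, and 1835 genes at 24 h and 11 at 96 h. With LKO libraries alone none of the 9 was called at 48 h and 1 at 72 h, and 1607, 1270, 353, 420 and 17 genes at 12, 24, 48, 72 and 96 h. At 96 h 35 genes were called with library size alone, 338 by DESeq2 (1 of the 9) and 18 to 77 without single mice. Fewer libraries enter the fits of a single genotype. The cause of the other changes was not tested. Mean *Cyp4a10* in Null control mice was 4316 CPM with library size alone, against 4560.

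With only libraries of at most 10% unmapped reads, chosen after seeing the data, 19 genes were called between HKO and Null control mice, 35 at 96 h, and 4 of the 9 at 72 h. Directions turned there for *Cpt1a* between HKO and Null control mice (0.06), for *Acot3* (-0.27) and *Cyp4a10* (-0.14) between LKO and control at 0 h, for *Acot3* at 24 h (-0.54), for *Plin2* at 72 h (-0.18) and 96 h (-0.13), and in the LKO minus HKO effect for *Cpt1a* (-0.08), *Cyp4a10* (-0.03) and *Fgf21* (-0.88).

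Directions turned only for values that were not called, apart from *Pdk4* (-0.07) and *Plin2* (-0.35) at 48 h with LKO libraries alone. With those libraries *Fgf21* was at -2.17 at 48 h and -1.55 at 72 h, *Plin2* at -0.26 at 72 h and -0.04 at 96 h, *Angptl4* at -0.34 at 24 h and *Pdk4* at 0.26 at 96 h. With control libraries *Acot3* was at -0.01 and *Ehhadh* at 0.04 at 24 h, and *Angptl4* at 0.26, *Cpt1a* at 0.22 and *Cyp4a10* at 0.03 at 48 h. With library size alone *Ehhadh* was at 0.15 at 24 h, *Cpt1a* at 0.19 at 48 h, 0.07 between LKO and control at 0 h and 0.08 over 12 to 96 h, *Angptl4* at 0.01 at 0 h, and the LKO minus HKO effect of *Cyp4a14* at 0.06. *Ehhadh* at 24 h was at 0.00 with DESeq2's size factors, without the filter and by DESeq2, and *Pdk4* at 96 h at 0.01 with those size factors. Without the time block *Cpt1a* was at 0.14 and *Cyp4a10* and *Cyp4a14* at -0.01 each. The LKO minus HKO effect of *Cyp4a14* was 0.00 by DESeq2 and 0.67 with the replicate block.

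Without single mice, LKO against control at 0 h ranged from -0.09 to 1.60 for *Acot3*, -0.18 to 0.04 for *Cpt1a*, -0.95 to 3.47 for *Cyp4a14* and -0.44 to 1.99 for *Cyp4a10*. Without single time points, *Cpt1a* ranged from -0.22 to 0.16, *Cyp4a14* from -0.11 to 0.29 and *Cyp4a10* from -0.12 to 0.28 over 12 to 96 h. After APAP, without single mice, *Acot3* ranged from -0.09 to 0.64 and *Ehhadh* from -0.07 to 0.09 at 24 h, *Cpt1a* from -0.09 to 0.00 and *Cyp4a10* from -0.71 to 0.24 at 48 h, *Plin2* from -0.04 to 0.13 at 72 h, and *Acot3* from -0.51 to 0.23, *Cyp4a14* from -1.01 to 0.13 and *Pdk4* from -0.08 to 0.13 at 96 h. The LKO minus HKO effect ranged from -1.78 to 2.63 for *Cyp4a14*, -0.24 to 2.19 for *Cyp4a10* and -0.06 to 0.47 for *Fgf21*. Depth limits *Acot3*, *Fgf21* and *Cyp4a14* in the mice with the fewest counts.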

Other observations

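*Fgf21* is also a gene of the ATF4 stress pathway. By edgeR's quasi-likelihood test 5 of 10 other genes of that pathway rose and none fell at 12 h (16.6% of all genes tested were higher and 14.2% lower), 5 rose and 2 fell at 24 h (13.8% and 11.5%), 4 rose and 2 fell at 48 h (9.78% and 6.45%), and 3 rose and 2 fell at 72 h (10.9% and 5.8%). These counts were not tested as a group. *Psat1*, an enzyme of serine synthesis, rose by a log2 change of 5.35 ± 0.35 at 12 h and 4.58 ± 0.36 at 48 h, with 22.8 CPM in the control pool and 6.83 in the LKO pool at 48 h. *Atf3*, a stress-induced transcription factor, rose by 6.18 ± 0.40 at 12 h, to 189 CPM in the control and 243 CPM in the LKO pool, and by 1.57 ± 0.44 at 48 h.

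Of 8 genes high in the fasted liver 2 rose (*Igfbp1* and *Gadd45b*) and 2 fell at 12 h, against 16.6% of all genes higher and 14.2% lower, and 1 rose and 3 fell at 24 h, against 13.8% and 11.5%. Those that fell included the gluconeogenic genes *Pck1* and *G6pc*. *Pck1* fell by 1.18 ± 0.34 at 12 h and by 1.83 ± 0.35 at 24 h, and *G6pc* fell by 1.71 ± 0.53 and by 3.17 ± 0.59. Of the 10 genes high in the fed liver 2 fell and none rose at 12 h. Of 9 hypoxia-responsive genes tested 3 rose at 12 h (*Adm*, *Slc2a1* and *Ndrg1*), and of 6 glucocorticoid-responsive genes 2 rose and 1 fell, against the same shares at 12 h. All 6 proliferation markers rose at 48 h and at 72 h, when 9.78% and 10.9% of all genes were higher.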
